A study of Mus musculus with 6 samples.

Results

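The expression of translation initiation factor genes was examined in WATs of control and Ntsr2 AKO mice. The set holds the genes whose symbols begin with Eif1 to Eif6, without the 4 kinases that phosphorylate eIF2 and without Eif2s3y, the Y-linked copy of Eif2s3x. Of 50 such genes, 49 reached a mean over the 6 mice of 10 normalized counts and were analysed, out of 16157 genes at that level and 21456 genes in all. Eif4e1b, an oocyte relative of Eif4e, was under that level, with a count of 10.6 in control 5 and 0 in the other 5 mice. The genes were grouped by complex into eIF2 (3 genes), its exchange factor eIF2B (5), eIF3 (14), eIF4 with its binding proteins (15) and factors that act singly (12).

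RNA from adipose tissue was taken from 3 controls with the Ntsr2 flox/flox genotype and from 3 Ntsr2 AKO mice (Adipoq-cre::Ntsr2 flox/flox), all on chow diet, and was sequenced in a study of NTSR2 in white adipocytes and food intake. NTSR2 is a receptor for the peptide neurotensin. All 6 mice carried the floxed allele, and the controls are named without Cre, so the presence of Cre and the loss of Ntsr2 cannot be told apart. Adipoq-cre acts in both white and brown fat, and the sources used here give neither the depot nor the sex, age or litter of the sequenced mice. Counts of the Y-linked Eif2s3y, given below, mark all 6 mice as male. With depot, age and litter unknown, p-values measure the spread between these mice. Values are normalized counts, which are read counts divided by 1 size factor per mouse, and a log2 fold change is the Ntsr2 AKO mean minus the control mean of log2(normalized count + 1).

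Initiation factors bring the initiator tRNA, the small ribosomal subunit and the mRNA together before protein synthesis begins. eIF2 carries the initiator tRNA as a GTP-bound complex, eIF2B reloads it with GTP, and phosphorylation of its alpha subunit blocks that reloading during stress. eIF3 and the small factors prepare the ribosomal subunit, while the cap-binding protein eIF4E, the scaffold eIF4G and the RNA helicase eIF4A form eIF4F, which recruits the mRNA and is held back by the eIF4E-binding proteins downstream of mTORC1. In adipocytes these steps are known as targets of insulin.

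Ntsr2 had normalized counts of 83.8, 64.0 and 152.5 in controls and 3.10, 8.29 and 0 in Ntsr2 AKO mice, so the genotype labels held in every mouse. The 7 adipocyte marker genes summed to between 1056492 and 1566872 in each mouse, with overlapping groups. The libraries held between 54085088 and 66098226 reads, and each control library was deeper than each Ntsr2 AKO library. Control 5 stood apart, since 11 skeletal muscle genes took 4.49% of its counts, against 0.353% in Ntsr2 AKO 5, 0.161% in Ntsr2 AKO 4 and at most 0.00281% in the other 3 mice. Summed counts of 5 immediate early genes, which respond within minutes to many stimuli, were 5144 to 10591 in controls and 1147 to 2302 in Ntsr2 AKO mice. The part of these differences in the values that follow was not tested, and in bulk tissue fewer cells of a type and less RNA per cell cannot be told apart.

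Most initiation factor genes had a lower mean in Ntsr2 AKO mice, with 1 large exception, the helicase gene Eif4a2. Of the 49 genes, 39 had a lower and 10 a higher mean, where 51.0% of all genes had a lower mean. The median log2 fold change was -0.18, against -0.01 over all genes tested, and after quantile normalization -0.072 against 0.05. In 16 genes (32.7%) all Ntsr2 AKO values lay below all control values, which held for 8.16% of all genes. After quantile normalization 9 genes were so separated, against 6.13% of all genes. In 2 genes (4.08%), Eif4a2 and Eif2a, all Ntsr2 AKO values lay above, against 6.82% of all genes, and in the other 31 the groups overlapped. The log2 fold changes ranged from -0.88 for Eif1a to 0.78 for Eif4a2.

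**Figure D1:**
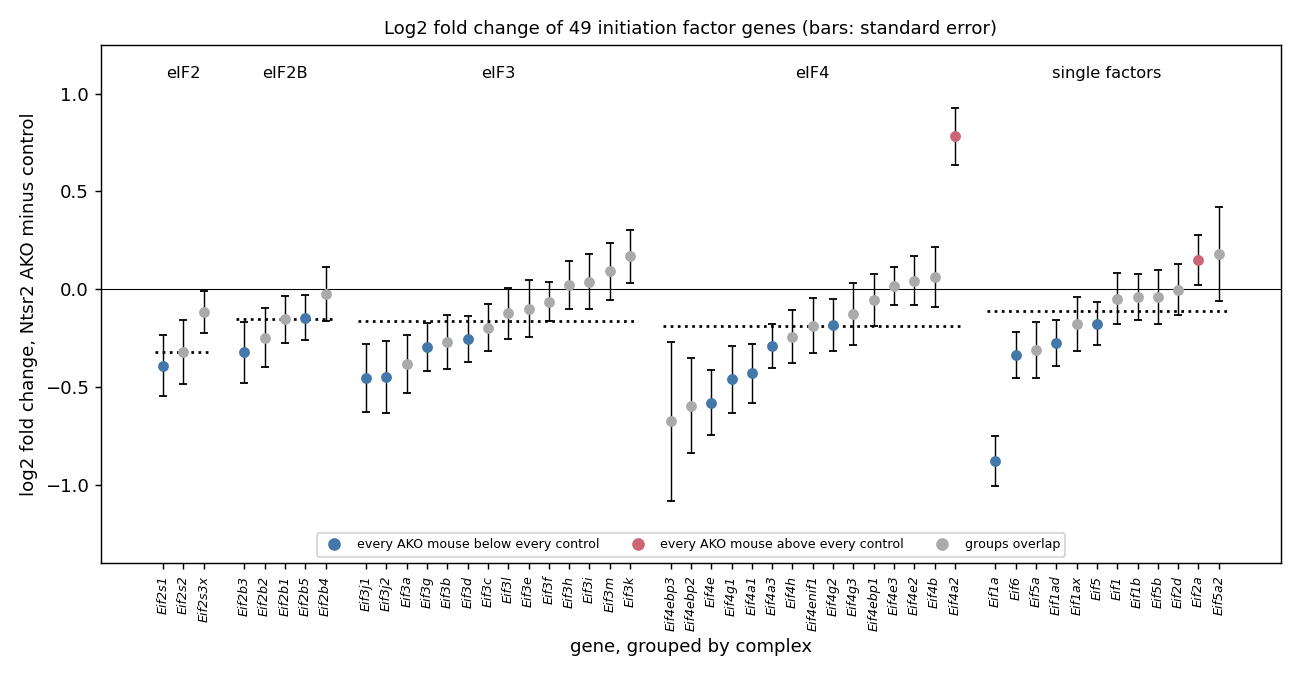
Log2 fold change (Ntsr2 AKO minus control) of each of the 49 genes on the vertical axis, grouped by complex on the horizontal axis, with bars for the standard error and dotted lines for the median of each complex. All 5 medians lie below 0, from -0.11 for the single factors to -0.32 for eIF2, and Eif1a and Eif4a2 lie farthest from 0.

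No initiation factor gene passed the limma test after adjustment over all genes, where 0.00619% of genes (1 gene) passed. At an unadjusted p under 0.05 in limma, 13 genes (26.5%) were lower, where 5.27% of all genes were, and 1 gene, Eif4a2, was higher (2.04%, against 3.08% of all genes). edgeR on the recovered reads passed none after adjustment (0.0% of all genes), and at an unadjusted p under 0.05 it gave 11 lower genes (4.9% of all genes were) and 1 higher (3.29%). DESeq2 passed Eif1a as lower and Eif4a2 as higher after adjustment, where 0.953% of all genes were lower and 0.408% higher (1.36% in all). The count of 13 changed when 1 mouse was left out and with the scaling. It was 2 without Ntsr2 AKO 4, 5 without Ntsr2 AKO 5, 6 without control 4 or control 5, 8 without control 3 and 11 without Ntsr2 AKO 3. After quantile normalization 3 genes were lower and 1 higher. The share of all genes at that p was not taken in these fits, and the fits without 1 mouse have fewer samples. A smaller excess over all genes and a loss of precision therefore cannot be told apart.

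The median coefficient of variation over the set was 10.9% in controls and 9.39% in Ntsr2 AKO mice, against 19.6% and 17.4% over all genes tested. The mice of a group were not alike in the set as a whole. Control 3 was the lowest control in 30 of the 49 genes, and Ntsr2 AKO 3 was the highest Ntsr2 AKO mouse in 28. Control 5, with the skeletal muscle transcripts, was the highest control in 22 genes and the lowest in 12. Without control 3, 25 genes were lower in every Ntsr2 AKO mouse, against 13.3% of all genes, and without control 5, 19 genes were, against 12.2%.

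**Figure D2:**
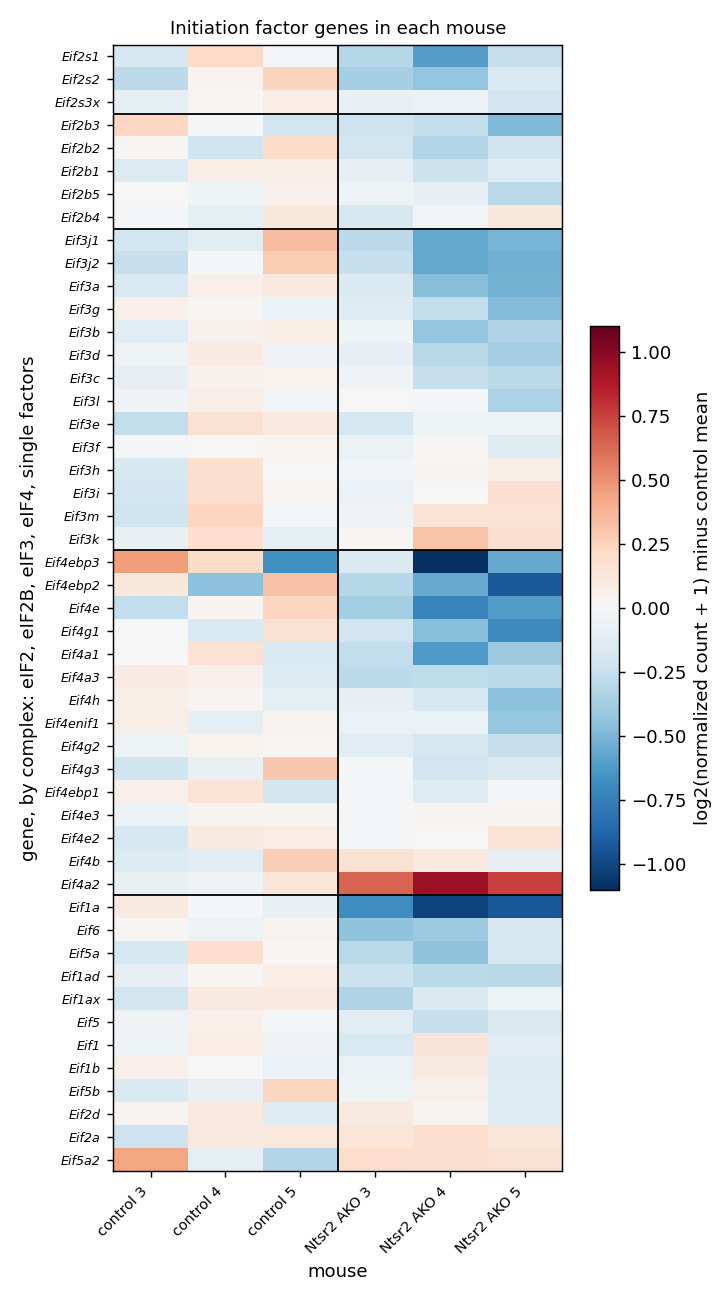
Each row is 1 of the 49 genes and each column 1 mouse, and the colour gives log2(normalized count + 1) minus the control mean, with red above and blue below it. Ntsr2 AKO 4 and 5 are blue in most rows, with medians over the set of -0.19 and -0.19, Ntsr2 AKO 3 is paler (-0.09), and the row of Eif4a2 is red in all 3 Ntsr2 AKO mice.

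Exon length was taken over all annotated transcripts of a gene, also those that retain an intron, and the order of genes depends on it. Per kilobase of exon, the most abundant members in control mice were Eif5a (8750 normalized counts per kilobase), Eif1 (7970), Eif4ebp1 (7550) and Eif4a1 (5686), with Eif4a2 in position 7 (5212). Eif5a2, the less widely expressed copy of Eif5a, was the least abundant at 52.7. In Ntsr2 AKO mice Eif4a2 was in position 1 at 8976, ahead of Eif1 at 7732. Exon length and log2 fold change had a Spearman correlation of -0.04 over the 49 genes and of -0.12 over 15174 tested genes with a length, a description over genes that share the same 6 libraries.

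The eIF4A helicases, which unwind the 5′ leader of the mRNA within eIF4F, differed in opposite directions. Eif4a2 had 26240, 26755 and 30463 normalized counts in control mice and 43139, 53757 and 46854 in Ntsr2 AKO mice. Each Ntsr2 AKO mouse was thus well above the highest control. The means were 27819 ± 2304 (SD, n = 3) and 47916 ± 5388 (SD, n = 3), a ratio of 1.72 and a log2 fold change of 0.78 (SE, the standard error, 0.15). Its adjusted p was 0.499 in limma, 0.569 in edgeR and 6.5e-05 in DESeq2. The log2 fold change stayed between 0.70 and 0.89 over 17 alternative fits, and it was 0.85 without control 5.

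Eif4a1, the close copy of Eif4a2 linked to proliferating cells, had 24582, 27439 and 21906 counts in controls and 20319, 15970 and 18586 in Ntsr2 AKO mice. All Ntsr2 AKO values were below all control values, with a log2 fold change of -0.43 (SE 0.15, adjusted p = 0.564 in limma). Eif4a3, whose product is the helicase of the exon junction complex and acts on spliced mRNA, had 3014, 2952 and 2555 counts in controls and 2315, 2336 and 2300 in Ntsr2 AKO mice. Its groups did not overlap either, and the log2 fold change was -0.29 (SE 0.11, adjusted p = 0.580 in limma).

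The balance of the 2 cytoplasmic helicases did not overlap between the groups. Eif4a1 made up 48.4%, 50.6% and 41.8% of the summed Eif4a1 and Eif4a2 counts in controls and 32.0%, 22.9% and 28.4% in Ntsr2 AKO mice. The mean shares were 46.9% ± 4.57 (SD, n = 3) and 27.8% ± 4.59 (SD, n = 3), without overlap. The sum of both genes was 50822, 54194 and 52369 in controls and 63458, 69726 and 65440 in Ntsr2 AKO mice, so the summed helicase transcripts were higher in each Ntsr2 AKO mouse. These shares are not corrected for length. Per kilobase, Eif4a1 and Eif4a2 stood at 5686 and 5212 in controls and at 4220 and 8976 in Ntsr2 AKO mice. The lengths used were 4334 and 5338 bases, over the exons of all annotated transcripts with retained introns included. The order of the 2 genes within a group depends on that choice.

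**Figure D3:**
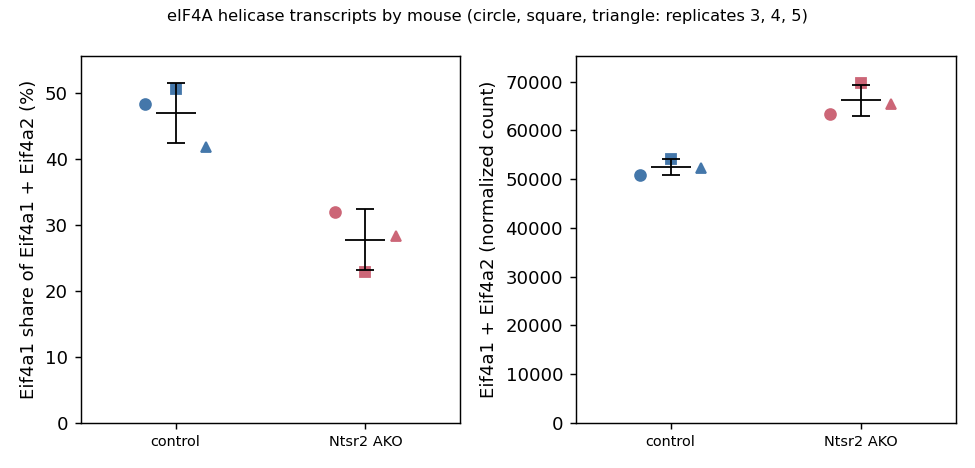
Left, the share of Eif4a1 in the summed normalized counts of Eif4a1 and Eif4a2 (%), and right, that sum, for each mouse, with the mean and SD of each group of 3. The share lies between 41.8% and 50.6% in controls and between 22.9% and 32.0% in Ntsr2 AKO mice, and the sum is higher in all Ntsr2 AKO mice.

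The 2 genes differ in how far their reads can be assigned. In GENCODE M21, 60.8% of the 100-base windows of the Eif4a1 transcript also occur in the pseudogene Eif4a-ps4, and 11.4% of those of Eif4a2 occur in Gm2999. The windows were taken from the transcript of each gene with the longest coding sequence. Untranslated parts found only in other transcripts are left out, so these shares need not be comparable. Eif4a2 lies at chr16:23107444-23114136 (GRCm38, plus strand) with 11 exons in the transcript with the longest coding sequence. It has 25 annotated transcripts, of which 6 are protein-coding, 15 retain an intron and 3 are marked for nonsense-mediated decay. The table gives 1 value per gene, so these forms were not separated. Its 3′ end overlaps Rfc4, a replication factor subunit on the opposite strand, by 194 exon bases (3.63%), and without a stated strand setting reads there cannot be assigned to either gene.

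Eif4a2 lies 32399 bases from Adipoq (chr16:23146536-23158028), the adiponectin gene after which the Adipoq-cre line is named. The neighbouring genes were therefore listed, a choice made after the values were seen. Beside Eif4a2 and Gm24616, a small RNA gene inside it, 10 tested genes lie within 500 kb on either side. Of these, 3 (Rfc4, Tbccd1 and B630019A10Rik) were higher in every Ntsr2 AKO mouse, where 6.82% of all genes were, 0 were lower in every one and 7 overlapped. Rfc4 had 156, 231 and 181 counts in controls and 268, 267 and 312 in Ntsr2 AKO mice, which gave a log2 fold change of 0.59 (SE 0.23, limma adjusted p = 0.571). Its exons overlap the end of Eif4a2, so its reads may not be separate from those of Eif4a2. Tbccd1 had a log2 fold change of 0.32 (SE 0.15), and Gm24616 one of 0.87 (SE 0.41). B630019A10Rik was at 0, 28.9 and 0 in controls and at 29.9, 71.5 and 64.8 in Ntsr2 AKO mice. Adipoq itself had 169166, 220865 and 163803 counts in controls and 180246, 197720 and 175152 in Ntsr2 AKO mice, with a log2 fold change of 0.01 (SE 0.22). The sources used here do not say where the Cre construct lies or which genes it carries. Since only Ntsr2 AKO mice carried Cre, an effect of the construct on these counts and of Ntsr2 loss cannot be told apart here.

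**Figure D4:**
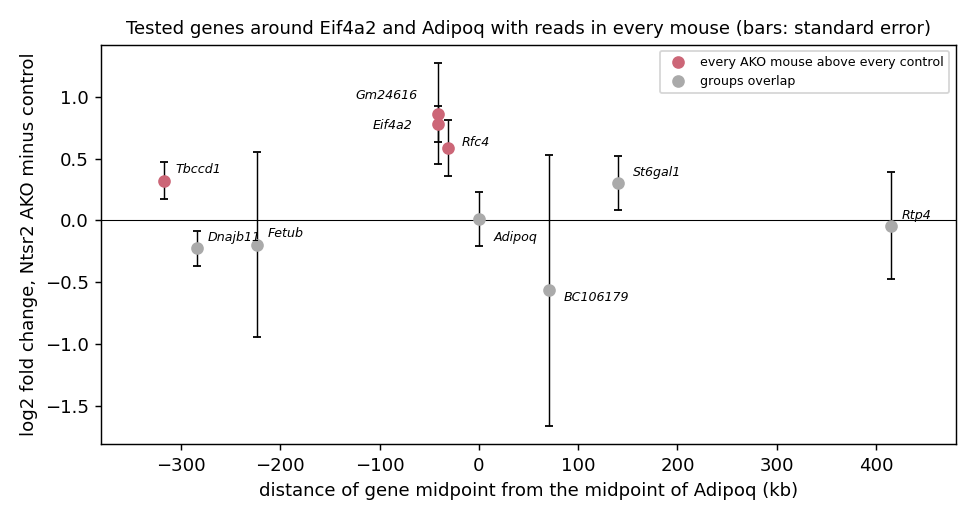
Log2 fold change (Ntsr2 AKO minus control, bars for the standard error) of the 10 tested genes around Eif4a2 that had reads in every mouse, against the distance of the gene midpoint from that of Adipoq in kb. Eif4a2, Gm24616 and Rfc4 lie together between 0.59 and 0.87, Tbccd1 lies at 0.32, and Adipoq at 0.01. Gm24616 lies inside Eif4a2 and Rfc4 overlaps its end, so their reads may not be separate.

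The genes of the cap-binding protein and of the main scaffold of eIF4F had lower values, without passing adjustment. Eif4e, the cap-binding protein, had 4292, 5289 and 6117 counts in controls and 3961, 3110 and 3372 in Ntsr2 AKO mice. The groups did not overlap, although control 3 and Ntsr2 AKO 3 lay close together. The log2 fold change was -0.58 (SE 0.17, adjusted p = 0.522 in limma) and -0.46 without control 5. Without all 3 mice with skeletal muscle transcripts it was -0.27, but that fit sets 2 controls against Ntsr2 AKO 3 alone. Ntsr2 AKO 3 had the highest Eif4e and Eif4g1 counts of its group. The loss of muscle transcripts and the choice of mouse therefore cannot be told apart in that fit. Eif4g1, the scaffold that joins eIF4E to eIF4A and eIF3, had 33128, 29431 and 37092 counts in controls and 28528, 23899 and 20342 in Ntsr2 AKO mice. The groups were again separate, with a log2 fold change of -0.46 (SE 0.17, adjusted p = 0.565 in limma). It was -0.13 without the 3 mice with skeletal muscle transcripts, again with Ntsr2 AKO 3 as the only Ntsr2 AKO mouse. Eif4g2, a scaffold that does not bind eIF4E, also separated the groups, with means of 53629 ± 1705 and 47224 ± 2264 (SD, n = 3 each) and a log2 fold change of -0.18.

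**Figure D5:**
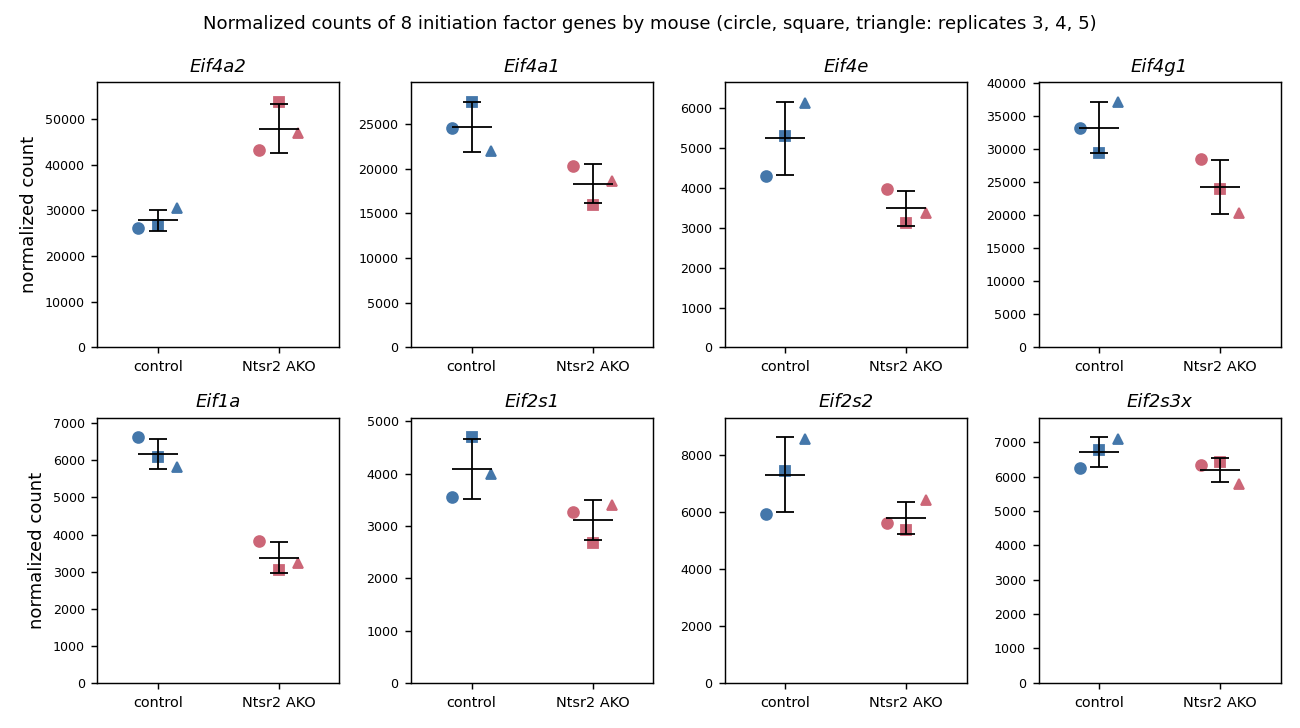
Normalized counts of 8 initiation factor genes for each mouse, with the mean and SD of each group of 3 and axes starting at 0. Eif4a2 is higher and Eif4a1, Eif4e, Eif4g1, Eif1a and Eif2s1 are lower in every Ntsr2 AKO mouse, while Eif2s2 and Eif2s3x overlap.

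The remaining eIF4 genes overlapped between the groups. Eif4g3, a further scaffold, and Eif4h, a helper of the helicase, had log2 fold changes of -0.13 (SE 0.16) and -0.24 (0.13), and Eif4b, another helper, had 0.06 (0.15). Among the eIF4E-binding proteins, which block the binding of eIF4G, Eif4ebp1 had 17169, 18257 and 14312 counts in controls and 16297, 14999 and 16271 in Ntsr2 AKO mice. Its log2 fold change was -0.06 (SE 0.13). Eif4ebp2 had 3373, 2262 and 3867 counts in controls and 2489, 2105 and 1628 in Ntsr2 AKO mice, which gave a log2 fold change of -0.60 with a standard error of 0.24 and an adjusted p of 0.590 in limma. Without the 3 mice with skeletal muscle transcripts it was -0.15, with Ntsr2 AKO 3, the highest of its group, as the only Ntsr2 AKO mouse. Control 4 lay within the Ntsr2 AKO range. Eif4ebp3 had a log2 fold change of -0.68 (SE 0.41), and 62.8% of its 100-base windows also occur in another annotated transcript.

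The E-box CACGTG, the motif bound by MYC and related factors, is known in the promoters of several translation genes, and its occurrence was counted in RefSeq promoter windows (GRCm38.p6) from 250 bases before to 50 after the gene start. The motif reads the same on both strands. It was found in 10 of 38 initiation factor genes with a window (26.3%) and in 11.3% of 11312 tested genes. Of the 10 genes with a window that were lower at an unadjusted p under 0.05, 4 held it (Eif4e, Eif4a1, Eif4g1 and Eif3a), and so did 6 of the other 28. These matches describe the sequence and show no binding. The 30 bases around each match in the 3 eIF4F genes and in Eif3a are given because these genes were lower, with the motif in capitals and each read along the strand of its gene.
Eif4e, chr3:138527028-138527057, plus strand: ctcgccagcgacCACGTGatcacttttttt
Eif4e, chr3:138527192-138527221, plus strand: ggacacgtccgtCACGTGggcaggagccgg
Eif4a1, chr11:69672595-69672624, minus strand: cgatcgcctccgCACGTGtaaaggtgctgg
Eif4g1, chr16:20672661-20672690, plus strand: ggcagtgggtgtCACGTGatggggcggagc
Eif4g1, chr16:20672730-20672759, plus strand: ctctgcgccggtCACGTGgggcgctggctg
Eif3a, chr19:60790654-60790683, minus strand: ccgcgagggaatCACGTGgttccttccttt
No CACGTG was found in the window of Eif4a2, and Eif1a had no window. The 6 other genes with the motif were Eif1b, Eif3f, Eif4h and Eif5a, with lower means, and Eif3k and Eif5a2, with higher means.

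Of the eIF2 subunit genes, only that of the alpha subunit separated the groups. Eif2s1, whose product is the subunit phosphorylated in the integrated stress response, had 3562, 4696 and 3999 counts in controls and 3262, 2671 and 3406 in Ntsr2 AKO mice. The Ntsr2 AKO values were all below the controls, although by a small gap between control 3 and Ntsr2 AKO 5. The means were 4086 ± 572 and 3113 ± 389 (SD, n = 3 each), with a log2 fold change of -0.39 (SE 0.15, adjusted p = 0.583 in limma). Eif2s2, the beta subunit, had 5933, 7427 and 8550 counts in controls and 5612, 5352 and 6430 in Ntsr2 AKO mice, with an overlap of the groups and a log2 fold change of -0.32 (SE 0.16). Eif2s3x, the gamma subunit that holds GTP and the initiator tRNA, had a log2 fold change of -0.12 (SE 0.11), also with overlap. RNA levels give no measure of the phosphorylation of eIF2.

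The excluded Y-linked copy showed how the gamma subunit is shared between genes. Eif2s3y had 3917, 4233 and 4582 counts in controls and 4846, 4733 and 4343 in Ntsr2 AKO mice. It was present in all 6 mice, which marks them as male. Eif2s3x made up 61.3% ± 0.41 of the sum of both genes in controls and 57.2% ± 0.46 in Ntsr2 AKO mice (SD, n = 3 each). The sum was 10956 ± 760 in controls and 10830 ± 596 in Ntsr2 AKO mice, a difference smaller than the spread. Of the 100-base windows of Eif2s3x, 35.3% occur also in Gm2223, and 20.8% of those of Eif2s2 occur in Gm9892, so reads of these subunits are less certain than those of Eif2s1 (1.33%).

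The 5 subunits of eIF2B all had a lower mean in Ntsr2 AKO mice, and 0 passed an unadjusted p of 0.05 in limma. Eif2b3 (gamma) and Eif2b5 (epsilon, the catalytic subunit) were lower in every Ntsr2 AKO mouse, as 8.16% of all genes were. Eif2b3 had 1769, 1486 and 1302 counts in controls and 1287, 1258 and 1078 in Ntsr2 AKO mice, which gave a log2 fold change of -0.32 (SE 0.16). Control 5 and Ntsr2 AKO 3 nearly met. Eif2b5 had 3084, 2997 and 3198 counts in controls and 2980, 2912 and 2514 in Ntsr2 AKO mice, which gave a log2 fold change of -0.15 (SE 0.11). Here control 4 and Ntsr2 AKO 3 nearly met. The regulatory subunits Eif2b1 (alpha), Eif2b2 (beta) and Eif2b4 (delta), which sense phosphorylated eIF2, had log2 fold changes of -0.15, -0.25 and -0.03 with standard errors of 0.12, 0.15 and 0.14 and overlapping groups.

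Within eIF3, the scaffold that keeps the small ribosomal subunit ready for mRNA, the subunits did not all differ in 1 direction. Of 14 genes, 10 had a lower and 4 a higher mean, with a median of -0.16. The Ntsr2 AKO mice lay below all controls in 4 genes (Eif3d, Eif3g, Eif3j1 and Eif3j2), or 28.6%, against 8.16% of all genes. A lower mean with an unadjusted p under 0.05 in limma was found for 4 genes (Eif3a, Eif3g, Eif3j1 and Eif3j2), against 5.27% of all genes, and the reads of Eif3j1 and Eif3j2 are not independent. The lowest log2 fold change was that of Eif3j1, a loosely attached subunit, at -0.45 (SE 0.17, adjusted p = 0.567 in limma). Eif3j1 had 6086, 6490 and 8916 counts in controls and 5774, 4782 and 4959 in Ntsr2 AKO mice, so that control 5 was far above the others. Without control 5 the log2 fold change was -0.29. It was -0.12 without all 3 mice with skeletal muscle transcripts, which leaves Ntsr2 AKO 3, the highest of its group, as the only Ntsr2 AKO mouse. At the other end Eif3k, a peripheral subunit, had 4950, 5931 and 4864 counts in controls and 5266, 6506 and 5901 in Ntsr2 AKO mice. Its groups overlapped, with a log2 fold change of 0.17 (SE 0.13). Eif3m, with 0.09 (SE 0.15), overlapped too.

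Eif3j2 shares most of its sequence with Eif3j1. Of the 100-base windows of Eif3j2, a copy with a single exon, 84.0% occur in Eif3j1, and Eif3j1 made up 88.1% ± 0.62 of their sum in controls and 88.1% ± 0.20 in Ntsr2 AKO mice (SD, n = 3 each). Likewise 43.3% of the exon bases of Eif3d lie opposite Gm17638. The other 7 eIF3 genes, for which only the range is given, had log2 fold changes between -0.27 and 0.04.

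Among the factors that act singly, Eif1a had the smallest p of all 49 genes. Its product, like that of Eif1ax, is eIF1A, which helps the ribosomal subunit to scan for the start codon. Eif1a had 6622, 6099 and 5828 counts in controls and 3840, 3055 and 3235 in Ntsr2 AKO mice. All controls were far above all Ntsr2 AKO mice, with means of 6183 ± 404 and 3376 ± 411 (SD, n = 3 each) and a log2 fold change of -0.88 (SE 0.13). The adjusted p was 0.355 in limma, 0.527 in edgeR and 8.8e-06 in DESeq2. The log2 fold change ranged from -0.97 to -0.73 over the 17 alternative fits and was -0.92 without control 5.

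Eif1ax, the X-linked copy, had 4431, 5469 and 5509 counts in controls and 4070, 4572 and 4939 in Ntsr2 AKO mice. These groups overlapped, with a log2 fold change of -0.18 (SE 0.14). The sum of Eif1a and Eif1ax was 11319 ± 258 in controls and 7903 ± 273 in Ntsr2 AKO mice (SD, n = 3 each), and the share of Eif1a in it was 54.7% ± 4.58 and 42.7% ± 5.05. The summed eIF1A transcripts were thus lower by more than the spread between mice, and most of the difference came from Eif1a. Neither gene shared a 100-base window with another annotated transcript (0.0%).

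Eif6, which keeps the large ribosomal subunit from joining too early, had 2643, 2523 and 2688 counts in controls and 1928, 1987 and 2314 in Ntsr2 AKO mice. The groups were separate, with a log2 fold change of -0.34 (SE 0.12, adjusted p = 0.564 in limma). Eif5, the GTPase-activating partner of eIF2, was also lower in every Ntsr2 AKO mouse, with means of 17912 ± 607 and 15846 ± 775 (SD, n = 3 each) and a log2 fold change of -0.18 (SE 0.11). Eif1ad, a protein related to eIF1A by its domain, was the remaining separated gene at -0.28. Eif1, which guards start codon choice, and Eif5b, which joins the ribosomal subunits, had log2 fold changes of -0.05 (SE 0.13) and -0.04 (0.14), and their groups overlapped.

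Eif2a, whose product delivers initiator tRNA without eIF2 and is not an eIF2 subunit despite its symbol, had 2688, 3408 and 3425 counts in controls and 3461, 3580 and 3451 in Ntsr2 AKO mice. The lowest Ntsr2 AKO value was barely above the highest control, and the log2 fold change was 0.15 (SE 0.13, adjusted p = 0.772 in limma). Eif5a2 had 349, 239 and 206 counts in controls and 296, 292 and 290 in Ntsr2 AKO mice, which gave a log2 fold change of 0.18 (SE 0.24).

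The other translation genes gave a weaker picture. All 46 listed genes for elongation, termination, polyA binding, eIF4E and eIF2 regulation, helicases and the mTORC1 to S6 kinase route were tested. Of these, 31 (67.4%) had a lower mean, against 51.0% of all genes, and the median log2 fold change was -0.09, against -0.01. In every Ntsr2 AKO mouse 8 (17.4%) were lower and 0 higher (8.16% and 6.82% of all genes). At an unadjusted p under 0.05 in limma, 3 (6.52%) were lower, close to the 5.27% of all genes, 0 were higher, and 0 passed after adjustment. The 3 genes, Etf1, Abce1 and Gspt1, all belong to the 5 genes of termination and recycling. Etf1, the release factor that reads stop codons, had 9957, 9518 and 10500 counts in controls and 8063, 6333 and 6634 in Ntsr2 AKO mice. Its groups were well apart, with a log2 fold change of -0.52 (SE 0.13) and an adjusted p of 0.522 in limma and 0.049 in DESeq2. Abce1, which splits the ribosome after termination, and Gspt1, the GTPase partner of Etf1, had log2 fold changes of -0.43 (SE 0.12) and -0.33 (0.11).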

How the data were processed

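RNA-seq of adipose tissue from 3 control and 3 Ntsr2 AKO mice was used, and samples were grouped by the genotype in the labels. The authors trimmed reads with Trimmomatic, aligned them with HISAT2, quantified them with StringTie and compared groups with DESeq2. The submitters' processing notes name HISAT2, StringTie and mm10. Versions, annotation and strand setting are not given in the sources used here. The deposited signal values are normalized counts, 1 per gene and mouse. Dividing a column by its smallest step gave whole reads for 100% of values (tolerance 0.01).

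The scale was log2(normalized count + 1). The 16157 genes whose mean reached 10 were tested in R 4.3.3 with limma 3.58.1 (mean-variance trend, 6 mice, no covariates) with Benjamini-Hochberg adjustment over all genes and a threshold of 0.05. edgeR 4.0.16 (quasi-likelihood) and DESeq2 1.42.0 were run on recovered reads. The scripts were tested on simulated data. Gene structure and shared windows of 100 bases are from GENCODE M21, promoters from RefSeq (GRCm38.p6). Windows and exon numbers are those of the transcript with the longest coding sequence.

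Members and lists were chosen with earlier results of these data known. Named genes are all eIF2 and eIF2B subunits, the eIF4A, eIF4E, eIF4G, eIF4B, eIF4H and eIF4E-binding protein genes, the 5 members with the smallest p in each direction, the highest and lowest eIF3 subunits, Eif1, Eif1ax, Eif5, Eif5b, Eif6, and other translation genes with an unadjusted p under 0.05. Further genes were named after their values were seen. Alternatives were pseudocounts of 0.1 and 5, no filter, a mean of at least 50, quantile normalization, no trend, a replicate block, both count tools, a skeletal muscle score as covariate and omission of each mouse. Counting error was not measured for these genes, and the number of mice limits precision.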

Additional observations from a re-analysis of the deposited data

How the results depend on the processing

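With 3 mice per group, differences under the spread between mice cannot be seen, and an unadjusted p over many genes is no call. The 1 gene of the whole table with an adjusted p under 0.05 in limma was 0 genes without the filter, without the trend, in edgeR, with the skeletal muscle score as covariate and when any mouse was left out, and 220 in DESeq2, where 2 initiation factor genes passed. Ntsr2 passed in DESeq2 alone (log2 fold change -4.72). The 13 initiation factor genes that were lower at an unadjusted p under 0.05 became 3 after quantile normalization, 5 without the trend, 7 with the covariate and 2 to 11 when 1 mouse was left out. The share of all genes at that p was not taken in these fits or with the replicate block. A smaller excess over all genes and a loss of precision therefore cannot be told apart. The median log2 fold change of the set was -0.072 after quantile normalization, which moved that of all genes to 0.05. The 16 genes lower in every Ntsr2 AKO mouse became 9 after quantile normalization (6.13% of all genes) and ranged from 18 to 25 when 1 mouse was left out. Leaving out a mouse can only keep or raise this count and its share over all genes, so that range is no check of the count. For the other translation genes, the 3 lower genes ranged from 2 to 5 and the 0 higher genes from 0 to 1. The cause was not tested for any of these changes, but a fit without 1 mouse also has fewer samples.

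Leaving out the 3 mice with skeletal muscle transcripts was chosen after seeing the data and leaves 2 controls and 1 Ntsr2 AKO mouse, which is assumed to vary like the controls. It gave a median log2 fold change of -0.11 over the set. With so few mice, 26 genes were lower and 5 higher in the remaining Ntsr2 AKO mouse than in both controls, against 27.9% and 27.1% of all genes.

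The replicate numbers 3, 4 and 5 occur in both groups. Deviations from the group means correlated at 0.45, -0.24 and 0.41 between mice of the same number. The sources used here do not say what a shared number means. These few correlations cannot decide whether such mice were paired. With the replicate block, 6 initiation factor genes were lower at an unadjusted p under 0.05 and 0 genes passed after adjustment. Controls 3 and 5 correlated best with their own number and control 4 did not.

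Signs turned only for named genes with small changes. After quantile normalization the log2 fold changes were 0.023 for Eif1, 0.032 for Eif2b4, 0.0028 for Eif2s3x, 0.021 for Eif4ebp1 and 0.078 for Eif5b. When 1 mouse was left out they ranged from -0.14 to 0.012 for Eif1, from -0.10 to 0.049 for Eif2b4, from -0.019 to 0.21 for Eif3m, from -0.011 to 0.20 for Eif4b, from -0.16 to 0.015 for Eif4ebp1, from -0.24 to 0.021 for Eif4g3 and from -0.12 to 0.078 for Eif5b. Without the 3 mice with skeletal muscle transcripts they were -0.041 for Eif3k, -0.046 for Eif3m, 0.13 for Eif4g3 and 0.068 for Eif5b. The other named initiation factor genes kept their direction in all 17 alternative fits, and the other translation genes were followed by their counts alone.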
